A study of Mus musculus with 12 samples.

Results

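Spn, Gcnt2, Cd74 and Mal are 4 genes for surface or membrane proteins and a glycan-building enzyme. They were taken by symbol, because earlier results of these data had shown large increases in KCC-07 treated cells against control cells, or a large gap between the compound's effect and that of the knockdown. They are 4 of the 55335 gene rows of the count table and 4 of the 14935 genes that passed the filter on low counts. Polyadenylated RNA was sequenced from 12 libraries of PYMT-R221A, a tumour line of the mouse mammary gland. The 4 groups of 3 libraries were cells treated with 40 µM KCC-07, control cells without the compound, cells transfected with siMBD2, an siRNA against Mbd2, and cells transfected with a scramble siRNA. KCC-07 is a small molecule described as keeping MBD2, a protein that reads methylated CpG, from binding DNA. All groups share the 1 cell line. The sources used here do not give the time of treatment, the vehicle, the number of siRNA sequences or the time after transfection.

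The proteins have separate roles at the cell surface and along the route to it. Spn encodes leukosialin (CD43), a rod-like sialomucin of blood cells whose outer part is densely covered with O-linked glycans and whose tail binds the ezrin, radixin and moesin linkers to actin. Gcnt2 encodes the I-branching enzyme, a Golgi glycosyltransferase that places branches on straight chains of N-acetyllactosamine, and it is transcribed from alternative first exons. Cd74 encodes the invariant chain, which holds the peptide groove of MHC class II molecules on their way through the cell and, at the surface, binds the cytokine MIF. Mal encodes a small membrane-spanning proteolipid of lipid rafts that carries cargo to the apical surface of epithelial cells. Spn and Cd74 are best known from leukocytes, while Mal is known from T cells, myelin and polarised epithelia.

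The libraries held 25.8 to 29.2 M counts in the KCC-07 group, 29.8 to 34.0 M in control, 29.7 to 31.7 M in siMBD2 and 26.1 to 32.9 M in scramble. Mbd2 itself had 30.6 to 35.7 CPM in the siMBD2 libraries against 72.5 to 83.2 CPM in scramble, and 72.8 to 77.1 CPM with KCC-07 against 72.9 to 76.5 CPM in control. CPM are counts scaled to library size, here after TMM scaling, which adjusts for the make-up of each library. The labels number the biological replicates of each group, and this number was taken as the batch. In the library names, replicate 3 of KCC-07 and of control carries the number 4. Replicate 3 of siMBD2 and of scramble carries the number 3 there. Whether replicate 3 was the same batch in both arms is therefore not known, and batch 3 below means only replicate 3 of every group. Replicate 3 stood apart in every group: mitochondrial genes took 3.90% of counts in KCC-07 replicate 3 against 1.82% and 1.55% in replicates 1 and 2, and 2.81% in control replicate 3 against 1.45% and 1.47%. In the siRNA arm the shares were 2.70% in siMBD2 replicate 3 and 3.01% in scramble replicate 3, against 2.12% to 2.32% in the other 4 libraries. The part of this in the results below was not tested, and values by replicate number and without replicate 3 are given beside them.

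The 4 genes lie on separate chromosomes (positions in GRCm38.p6, GENCODE vM21). Spn (ENSMUSG00000051457.7) is on the minus strand at chr7:127132232-127137823. Gcnt2 (ENSMUSG00000021360.16) is on the plus strand at chr13:40859754-40960892 and Mal (ENSMUSG00000027375.14) on the minus strand at chr2:127633226-127656695. None had a near-identical copy among the annotated transcripts at 95% identity over 50% of its length. Gcnt2 shares 777 exon bases with A730081D07Rik and Gm31683 on the opposite strand, and the sources used here do not give the strand setting of the counting, so its reads and theirs cannot be told apart. Those neighbours were credited with at most 2 counts in any library.

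Since the compound is aimed at a reader of methylated CpG, the bases before the RefSeq transcription starts are shown with each CpG in capitals; DNA methylation was not measured in these libraries. Windows of 250 bases were taken and any annotated exon base was left out, which gives chr7:127137824-127138073 for Spn, chr2:127656696-127656945 for Mal, and chr13:40859518-40859753, chr13:40886508-40886757 and chr13:40917384-40917600 for the 3 starts of Gcnt2. Sequences are from RefSeq (GRCm38.p6), 5′ to 3′ on the strand of the gene.
Spn: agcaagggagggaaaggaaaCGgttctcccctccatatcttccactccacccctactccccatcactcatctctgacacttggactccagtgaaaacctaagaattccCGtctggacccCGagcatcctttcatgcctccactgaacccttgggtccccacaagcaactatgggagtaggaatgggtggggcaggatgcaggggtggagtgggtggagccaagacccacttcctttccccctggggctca
Mal: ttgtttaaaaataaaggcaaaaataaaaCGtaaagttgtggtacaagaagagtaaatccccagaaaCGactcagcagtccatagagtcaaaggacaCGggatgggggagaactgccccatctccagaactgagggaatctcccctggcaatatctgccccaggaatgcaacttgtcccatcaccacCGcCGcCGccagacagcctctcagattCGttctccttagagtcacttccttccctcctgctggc
Gcnt2, start 1: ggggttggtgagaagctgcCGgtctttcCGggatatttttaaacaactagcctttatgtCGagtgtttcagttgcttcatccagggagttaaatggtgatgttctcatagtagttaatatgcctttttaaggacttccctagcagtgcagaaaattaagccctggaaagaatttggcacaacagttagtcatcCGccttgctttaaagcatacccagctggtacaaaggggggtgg
Gcnt2, start 2: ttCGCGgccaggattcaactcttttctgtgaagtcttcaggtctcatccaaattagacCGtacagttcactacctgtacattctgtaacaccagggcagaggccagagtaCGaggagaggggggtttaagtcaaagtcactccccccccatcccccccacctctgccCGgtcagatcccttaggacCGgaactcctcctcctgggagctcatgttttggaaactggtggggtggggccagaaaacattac
Gcnt2, start 3: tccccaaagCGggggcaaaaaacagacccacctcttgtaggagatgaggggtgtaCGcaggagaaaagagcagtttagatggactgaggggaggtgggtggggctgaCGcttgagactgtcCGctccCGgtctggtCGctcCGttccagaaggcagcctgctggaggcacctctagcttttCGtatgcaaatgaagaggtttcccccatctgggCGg

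The windows differ in how many CpG they hold. Cd74 had no window among those used, so neither its CpG nor its motifs were examined. The whole window held 3 CpG at Spn and 7 at Mal, and 5, 6 and 11 at the 3 starts of Gcnt2, against a median of 6 (quartiles 2 and 16) over 32851 promoter windows of the same length. Of all those windows, 71.0% had at least as many CpG as Spn and 35.6% as many as start 3 of Gcnt2, and all 5 counts lie between the quartiles. The downstream pair of Gcnt2 starts lies inside a longer Gcnt2 transcript, and gene-level counts do not tell which start was used. Motifs were searched on both strands: the core TGACNNNGC of the antioxidant response element, the AP-1 site TGANTCA, and the interferon-stimulated response element as GAAA and GAAA with 2 bases of any kind between them. The only match in the windows of Spn, Mal and Gcnt2 was 1 antioxidant core, at Gcnt2 start 2. These motifs were present in 10.2%, 6.75% and 2.98% of all the windows, in that order.

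Spn, the sialomucin gene, was higher in KCC-07 cells in every replicate. It reached 8.22, 6.10 and 14.9 CPM in KCC-07 replicates 1, 2 and 3, against 1.67, 1.93 and 2.38 CPM in control, with means of 9.73 ± 4.57 and 1.99 ± 0.358 CPM (SD, n = 3 each). Every KCC-07 library lay above every control library. The fitted log2 difference was 2.28 with a standard error of 0.34, or 4.87-fold. By replicate number the ratios of KCC-07 to control were 4.93, 3.16 and 6.25, and without replicate 3 of any group the log2 difference was 2.00. The underlying counts were 182 to 400 per KCC-07 library and 57 to 82 per control library.

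Gcnt2, the I-branching enzyme, had the largest log2 difference of the 4 genes and, in KCC-07 cells, the tightest replicates. Its level was 6.79, 6.84 and 7.03 CPM in the KCC-07 libraries, against 1.11, 1.17 and 0.290 CPM in control. The means were 6.88 ± 0.125 and 0.856 ± 0.491 CPM (SD, n = 3 each), so the SD was 1.81% of the mean with KCC-07 and 57.4% in control. The KCC-07 libraries held 189 to 204 counts each. An SD from 3 libraries at such counts is itself uncertain, so the tightness is not read as a trait of the gene. The groups did not overlap. The low control library was replicate 3, with 10 counts where the other 2 had 38 and 35. The log2 difference was 3.01 (standard error 0.38), or 8.04-fold, and the ratios by replicate number were 6.10, 5.86 and 24.2. Without replicate 3 of any group it was 2.58.

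Cd74, the invariant chain (ENSMUSG00000024610.15, chr18:60803848-60812652, plus strand), followed the same split with more scatter. It had 6.28, 4.79 and 11.2 CPM in the KCC-07 libraries, against 1.49, 1.40 and 0.406 CPM in control, with means of 7.41 ± 3.33 and 1.10 ± 0.602 CPM (SD, n = 3 each). KCC-07 replicate 3 was the highest and control replicate 3 the lowest of all 6, and the groups did not overlap. The log2 difference was 2.75 (standard error 0.46), or 6.73-fold. The ratio was 27.5 within replicate 3, against 4.20 and 3.43 within replicates 1 and 2. Without replicate 3 of any group the log2 difference was 1.94.

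Mal, the raft proteolipid, was the most scattered of the 4 genes in KCC-07 cells, with an SD of 71.7% of the mean, against 54.6% in control. Its level was 2.80, 3.79 and 10.2 CPM with KCC-07, against 0.351, 1.30 and 1.16 CPM in control, with means of 5.59 ± 4.01 and 0.937 ± 0.512 CPM (SD, n = 3 each). The groups did not overlap, and KCC-07 replicate 3 was far above the other 2. The log2 difference was 2.58 (standard error 0.63), or 5.96-fold. It was 1.82 without KCC-07 replicate 3 and 2.02 without replicate 3 of any group. The ratios by replicate number were 7.96, 2.92 and 8.78, and the lowest control library rested on 12 counts.

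**Figure D1:**
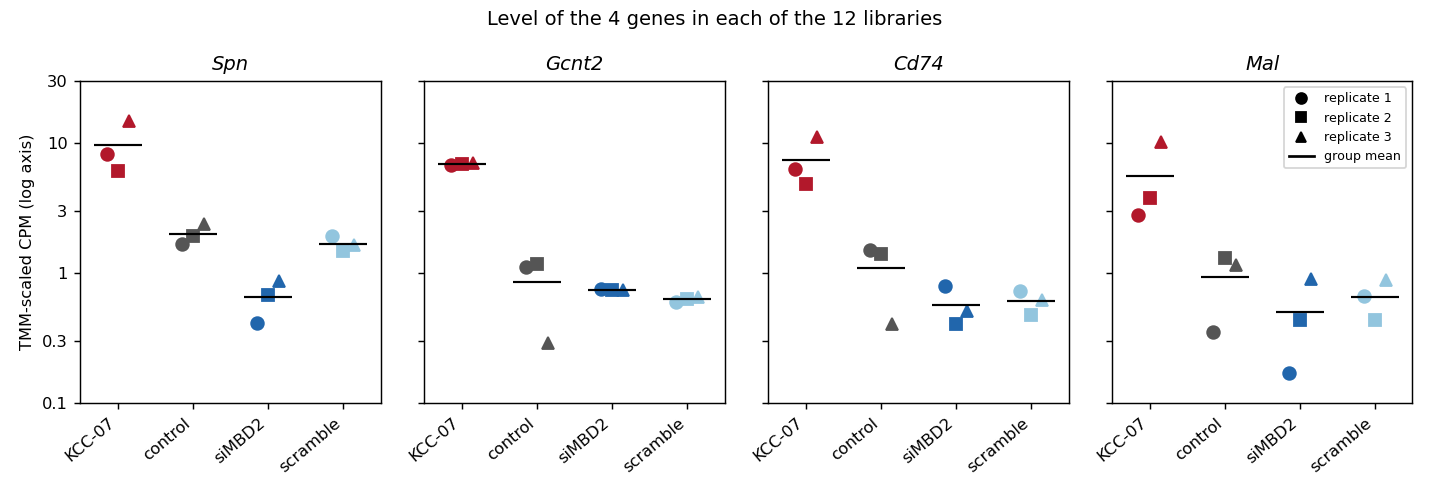
Level of Spn, Gcnt2, Cd74 and Mal in each of the 12 libraries, in TMM-scaled CPM on a log axis. Points are libraries shaped by replicate number and lines are group means; all KCC-07 libraries lie above all control libraries, from 2.80 CPM for Mal upwards, and Gcnt2 has the tightest KCC-07 points.

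These differences are what the genes were chosen for, so they carry no test here. In the same fit, 844 of the 14935 genes (5.65%) passed an edgeR quasi-likelihood adjusted p under 0.05 in KCC-07 against control, 534 of them higher (3.58%), and all 4 genes were among these. By size of the log2 difference Gcnt2 ranked 28 from the top, Cd74 39, Mal 47 and Spn 69. A complete separation of the KCC-07 libraries above the control libraries was found for 12.3% of all genes tested. KCC-07 replicate 3 was the highest of its group for all 4 genes, for Gcnt2 only by 7.03 against 6.84 CPM, and for 42.5% of all genes tested. Control replicate 3 was the lowest of its group for Gcnt2 and Cd74, as for 41.8% of all genes tested.

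The siRNA arm gave no comparable increase. Spn had 0.410, 0.672 and 0.860 CPM in the siMBD2 libraries, against 1.92, 1.47 and 1.64 CPM in scramble, with means of 0.648 ± 0.226 and 1.67 ± 0.227 CPM (SD, n = 3 each). Every siMBD2 library lay below every scramble library, an order found for 11.6% of all genes tested. The log2 difference was −1.36 (standard error 0.37), or 0.389 of the scramble level, and the ratios by replicate number were 0.214, 0.459 and 0.525. The siMBD2 values rested on 12, 20 and 27 counts. Spn ranked 67 from the bottom of 14935 genes in this comparison, in which 6 genes (0.0402%) passed the edgeR threshold, all lower. The pair of separations, above control with KCC-07 and below scramble with siMBD2, was found for 1.29% of all genes tested. Spn was chosen with the gap between the arms known, so its rank and these shares are descriptions and no test.

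Gcnt2 had 0.751, 0.739 and 0.733 CPM in siMBD2, against 0.597, 0.634 and 0.656 CPM in scramble. The means were 0.741 ± 0.00931 and 0.629 ± 0.0297 CPM (SD, n = 3 each). All siMBD2 libraries lay above all scramble libraries, as for 10.3% of all genes tested, with 22 or 23 counts per siMBD2 library against 16 to 19 per scramble library. The small SDs at these counts are not read as a trait of the gene. The log2 difference was 0.24 (standard error 0.40), with a 95% interval of −0.69 to 1.16. The matching interval for KCC-07 minus control was 2.14 to 3.88. Gcnt2 was chosen on these contrasts, so neither that interval nor its distance from the siRNA interval is a test.

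Cd74 had 0.786, 0.403 and 0.510 CPM in siMBD2, against 0.723, 0.475 and 0.619 CPM in scramble, and the groups overlapped. The log2 difference was −0.11 (standard error 0.52; 95% interval −1.30 to 1.08), and its sign turned when siMBD2 replicate 2 (0.08) or scramble replicate 1 (0.04) was left out. Mal had 0.171, 0.437 and 0.892 CPM in siMBD2, against 0.660, 0.436 and 0.874 CPM in scramble. Replicates 2 and 3 had almost the same Mal level in both groups, with ratios of 1.00 and 1.02, and replicate 1 had 0.259. The log2 difference of −0.39 (standard error 0.69; 95% interval −1.98 to 1.21) was 0.02 without siMBD2 replicate 1 and −1.10 without siMBD2 replicate 3, and the lowest Mal value rested on 5 counts.

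**Figure D2:**
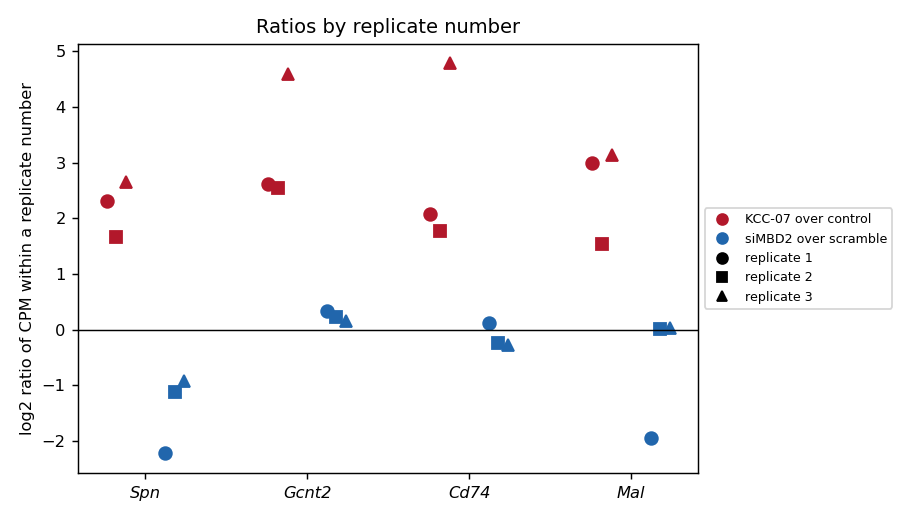
Log2 ratio of CPM within each replicate number for KCC-07 over control and for siMBD2 over scramble. The KCC-07 ratios are all above 0, from 2.92-fold for Mal in replicate 2 to 27.5-fold for Cd74 in replicate 3; only Spn has all 3 siRNA ratios below 0, at 0.214 to 0.525.

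Set against each other, the effect of KCC-07 exceeded that of siMBD2 by 3.65 (standard error 0.50) on the log2 scale for Spn, 2.77 (0.55) for Gcnt2, 2.86 (0.69) for Cd74 and 2.96 (0.93) for Mal. For Spn, Cd74 and Mal the gap is wider than the KCC-07 difference alone because the siRNA value lies on the other side of 0. That value was −1.36 for Spn, −0.11 for Cd74 and −0.39 for Mal. Across all genes, 98 of 14935 (0.656%) passed the threshold for this difference, 0.482% higher and 0.174% lower, and Spn and Gcnt2 were among them while Cd74 and Mal were not. The choice of the genes used this contrast as well, so nothing is read from that count. A log2 difference of at least 1 with KCC-07 together with one of at most −1 with siMBD2 was found for 37 genes (0.248%), of which Spn was the only one of the 4. That share is a description, since Spn was chosen with this gap known.

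**Figure D3:**
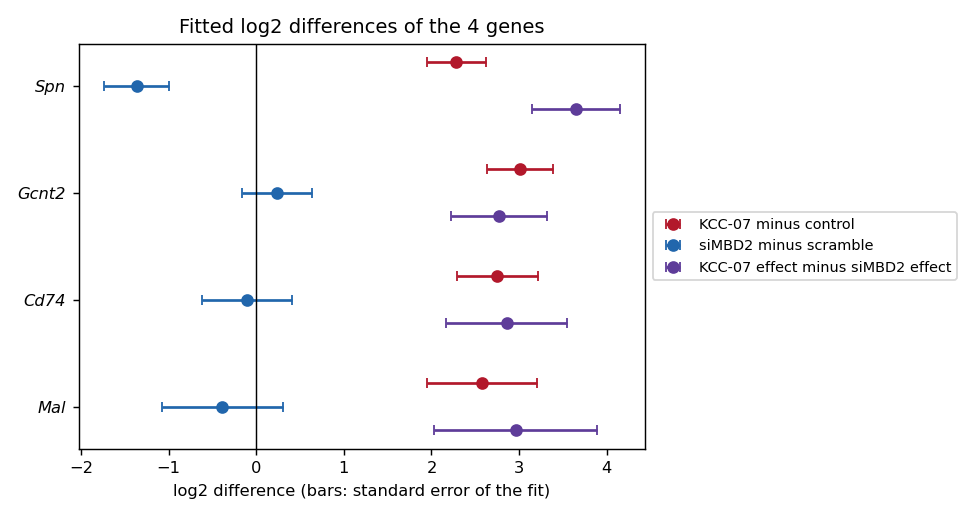
Fitted log2 differences with their standard errors for KCC-07 minus control, siMBD2 minus scramble, and the KCC-07 effect minus the siMBD2 effect. The KCC-07 values of the 4 genes lie between 2.28 and 3.01, and the siMBD2 values lie between −0.39 and 0.24 except for Spn at −1.36.

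Transfection with the scramble siRNA, set against the untransfected control, left the 4 genes at overlapping levels. The log2 differences were −0.25 (standard error 0.34) for Spn, −0.44 (0.40) for Gcnt2, −0.84 (0.49) for Cd74 and −0.50 (0.66) for Mal. This comparison shares the control libraries with that of KCC-07. From low to high, Spn ran siMBD2, scramble, control and KCC-07, with scramble and control overlapping. Gcnt2 ran scramble, siMBD2, control and KCC-07, Cd74 siMBD2, scramble, control and KCC-07, and Mal siMBD2, scramble, control and KCC-07. In these 3 genes the lower 3 groups overlapped, apart from siMBD2 and scramble for Gcnt2.

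Per kilobase of exon, all 4 genes stayed below the median gene even with the compound. Cd74, the shortest, reached 4.41 CPM per kb with KCC-07 against 0.655 in control. Spn had 2.08 against 0.426 CPM per kb, Mal 2.01 against 0.337, and Gcnt2 0.976 against 0.121. The median over tested genes with a length was 5.72 CPM per kb with KCC-07 and 5.49 in control. By this scale 43.9% of those genes lay below Cd74 in KCC-07 cells, against 17.6% in control. The matching shares were 30.2% and 13.7% for Spn, 29.8% and 11.7% for Mal, and 21.1% and 4.65% for Gcnt2. In bulk RNA a change in the level per cell and a change in the number of cells that express a gene cannot be told apart.

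Because Spn and Cd74 are typical of blood cells, leukocyte markers were read beside them. Of 20 such markers 6 (Cd4, Cd8a, Ms4a1, Adgre1, Tyrobp and Cd53) had no count in any library, which allows at most 0.0870 to 0.119 CPM per library for 3 counts, and only Csf1r and Lcp1 passed the filter on low counts. Ptprc, the pan-leukocyte gene for CD45, had 6 counts in all, every one in a KCC-07 library and at most 3 in any. The 20 markers summed to 11.6 to 14.8 CPM with KCC-07 against 3.51 to 11.6 CPM in control, and to 7.90 to 8.23 CPM in siMBD2 against 10.3 to 11.5 CPM in scramble. Most of that was Csf1r and Lcp1. Csf1r, the receptor of the macrophage growth factor, had 7.61, 5.70 and 1.23 CPM with KCC-07 against 4.10, 4.43 and 2.15 CPM in control. Lcp1, an actin-bundling protein that tumour cells also make, had 6.41, 5.16 and 12.2 CPM with KCC-07 against 5.45, 6.63 and 1.01 CPM in control. Within replicate 3 Lcp1 was therefore high with KCC-07 and low in control, as Cd74 was, while within replicates 1 and 2 it was not separated. Neither passed the threshold (edgeR adjusted p = 0.640 for Csf1r and 0.303 for Lcp1), and their part in the result was not tested.

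Epithelial markers, read to check the labelled origin of the cells, were well expressed. The 7 markers summed to 1425 to 1486 CPM with KCC-07 against 1144 to 1315 CPM in control, and to 1298 to 1465 CPM in siMBD2 against 1394 to 1481 CPM in scramble. Of the 7, 6 rose with KCC-07 beside the background of 3.58%, and their part in the levels of Mal was not tested. Fibroblast markers summed to 102 to 161 CPM with KCC-07 against 186 to 218 CPM in control, and 140 to 159 CPM in siMBD2 against 143 to 147 CPM in scramble, with none of 5 tested past the edgeR threshold in KCC-07 minus control (4 at an unadjusted p under 0.05). With the block 2 of the 5 were lower, Col1a1 (log2 difference −0.54, edgeR adjusted p = 0.0137) and Pdgfrb (−1.38, 0.0233), named after their values were seen. Myoepithelial markers summed to 262 to 563 CPM with KCC-07 against 481 to 605 CPM in control, and to 497 to 512 CPM in siMBD2 against 498 to 548 CPM in scramble. With KCC-07, 1 of 6 was lower by the test and 2 with the block (Oxtr, then Trp63 as well). Over all 14935 genes, 2.08% were lower by the test and 1344 genes with the block, for comparison with the fibroblast and myoepithelial counts. No such share is given for the unadjusted count. Endothelial markers stayed at 1.19 to 6.72 CPM with KCC-07 against 2.90 to 4.36 CPM in control, and at 0.956 to 1.88 CPM in siMBD2 against 1.63 to 1.98 CPM in scramble.

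The partners of each protein were read next, in 9 lists of pathway genes that leave the 4 genes out. Of 129 list genes with a row, 93 passed the filter on low counts. With KCC-07, 4 rose and 4 fell by edgeR's adjusted p, or 8 of 93 beside 5.65% of all genes, and their median log2 difference was 0.15 beside 0.02 over all genes tested. With the replicate number as a block 18 rose and 5 fell, beside 21.8% of all genes. Without control replicate 1 or without control replicate 2 the count was 5, and without control replicate 3 it was 15. With siMBD2 none of the 93 passed by edgeR, and their median was 0.02. Of them 6 had an unadjusted p under 0.05, 1 passed by DESeq2 beside 85 over all genes tested, and 2 with the block beside 0.75%. For the difference between the effects none passed by edgeR. Of the 93, 16 had an unadjusted p under 0.05, 4 passed by DESeq2 beside 617 over all genes tested, and 9 with the block beside 6.9%. For KCC-07 minus control DESeq2 called 13 of the 93, beside 1874 over all genes tested. No share of all genes is given for the unadjusted counts, so nothing is read from them. The values over all genes apply to the counts of each list below as well.

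The MHC class II chains that the invariant chain serves were at or near 0. H2-Ab1, H2-Eb1 and H2-Eb2 had no count in any of the 12 libraries, and H2-Aa had 1 count in all. The accessory chains H2-DMb1, H2-DMb2, H2-Oa and H2-Ob summed to 9, 12, 16 and 9 counts over the 12 libraries. H2-DMa, a subunit of the peptide editor, was the only one of 9 to pass the filter. It had 0.785, 0.570 and 1.19 CPM with KCC-07 against 0.790, 0.366 and 0.377 CPM in control (log2 difference 0.72, edgeR adjusted p = 0.352). In siMBD2 it had 0.512, 0.907 and 1.02 CPM against 0.503, 0.277 and 0.619 CPM in scramble. Cd74 was thus measured at 4.79 CPM or more in every KCC-07 library while no classical class II chain had more than 1 count in any library.

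**Figure D4:**
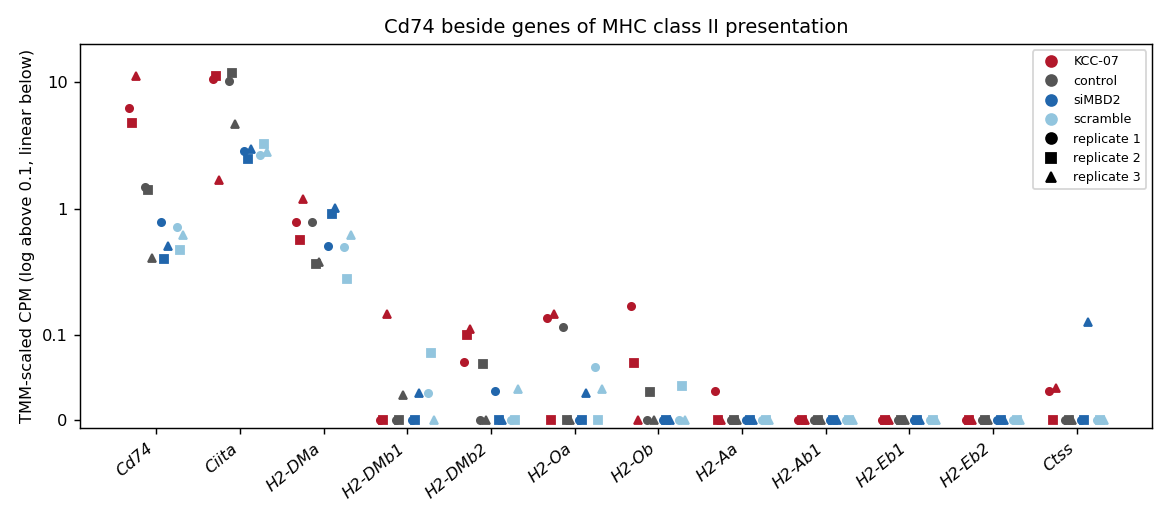
Cd74 beside Ciita, the class II chains and peptide editors, and Ctss in each of the 12 libraries, in TMM-scaled CPM on an axis that is linear below 0.1 and log above it. Cd74 is separated between KCC-07 and control while H2-Ab1, H2-Eb1 and H2-Eb2 lie at 0 in every library.

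Ciita, the master co-activator of class II genes and of Cd74, had overlapping levels in the same comparison. It had 10.5, 11.2 and 1.67 CPM with KCC-07 against 10.2, 11.8 and 4.70 CPM in control, so its lowest KCC-07 library was the one in which Cd74 was highest. Its log2 difference was −0.19 (edgeR adjusted p = 0.861). Irf1, an interferon-induced factor that acts on the Ciita gene, split by replicate in the same way, with 1352, 1091 and 87.7 CPM with KCC-07 against 1304, 1054 and 99.6 CPM in control. Ciita and Irf1 were named after their values were seen. Of 10 class II regulators 1 fell, Nfyb, a subunit of the CCAAT-binding factor NF-Y, to 20.2 ± 1.63 CPM with KCC-07 against 28.5 ± 0.460 CPM in control (SD, n = 3 each; log2 difference −0.49, edgeR adjusted p = 0.0123). The Nfyb call was lost with the 6 libraries of the comparison alone (edgeR adjusted p = 0.186) and with those 6 and the block (0.0750). With the block over all 12 libraries 1 of the 10 rose and 2 fell.

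Among genes that process Cd74 or work with it as a receptor, 1 of 10 tested rose and 1 fell. Cd44, the hyaluronan receptor that signals with Cd74 when MIF binds, rose to 258 ± 59.8 CPM with KCC-07 against 160 ± 5.83 CPM in control (SD, n = 3 each; log2 difference 0.68, edgeR adjusted p = 0.0130). Ackr3, a scavenging chemokine receptor that also binds MIF, fell to 0.255 ± 0.0456 CPM against 1.12 ± 0.644 CPM in control (log2 difference −2.12, edgeR adjusted p = 0.0214). That call was lost without KCC-07 replicate 2 (adjusted p = 0.0559) and without KCC-07 replicate 3 (adjusted p = 0.0515). The Cd44 and Ackr3 calls were both lost with the 6 libraries of the comparison alone (edgeR adjusted p = 0.175 for each). With those 6 and the block both were lost as well (0.0579 for Cd44 and 0.0784 for Ackr3). Mif itself had 187 ± 2.90 CPM with KCC-07 against 221.5 ± 28.7 CPM in control (SD, n = 3 each) and did not pass (edgeR adjusted p = 0.121). Ctss, the protease that trims the invariant chain in antigen-presenting cells, had 6 counts over all libraries. Mif and Ctss were named after their values were seen.

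None of the enzymes closest to Gcnt2 passed the threshold. In the list of Gcnt relatives and the enzymes that build N-acetyllactosamine chains, 0 of 12 tested genes passed by edgeR, with 1 at an unadjusted p under 0.05, 1 by DESeq2 and 4 higher with the block. Their median log2 difference was 0.26, beside 0.02 over all genes tested. Of the 12, 10 were above 0, beside 51.8% of all genes tested. The block called 21.8% of all genes in either direction. The 4 called with the block were the chain-extending enzymes B3gnt3 (log2 difference 1.04, adjusted p = 0.0279) and B3gnt7 (0.71, 0.0283), the galactosyltransferase B4galt3 (0.35, 0.0359) and the branching enzyme Gcnt4 (0.41, 0.0479). B4galt1, the galactosyltransferase that adds the galactose of each unit, had 260 ± 35.4 CPM with KCC-07 against 267 ± 13.97 CPM in control (SD, n = 3 each; edgeR adjusted p = 0.862). B3gnt2, the main chain-extending enzyme, had 65.7 ± 6.71 CPM against 57.4 ± 7.91 CPM (SD, n = 3 each; edgeR adjusted p = 0.336). The sister branching enzymes differed in level. Gcnt1, which makes core branches on O-glycans, had 47.2 ± 9.77 CPM with KCC-07 against 41.7 ± 7.66 CPM in control, and Gcnt4 had 33.4 ± 15.04 CPM against 24.1 ± 5.24 CPM (SD, n = 3 each), and neither passed without the block. Gcnt3 had at most 1 count in a library of either group, and Gcnt7 had none. Beyond B4galt1 and B3gnt2, these genes were named after their values were seen.

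In the other glycosylation lists single enzymes passed. Of 8 N-glycan branching genes tested, Mgat4a, which adds an antenna to N-glycans, rose to 32.5 ± 12.7 CPM with KCC-07 against 16.8 ± 1.90 CPM in control (SD, n = 3 each; log2 difference 0.96, edgeR adjusted p = 0.0307), and with the block 3 rose. That call was lost without control replicate 1 (adjusted p = 0.105), control replicate 2 (0.0898), siMBD2 replicate 2 (0.0525) or scramble replicate 2 (0.0527), the last 2 being libraries outside the comparison. The list of O-glycan initiation also held C1galt1 and its chaperone C1galt1c1, which act at the next step. Of its 12 genes tested, Galnt3, which puts the first sugar on serines and threonines, rose to 116 ± 25.7 CPM against 75.6 ± 8.38 CPM (SD, n = 3 each; log2 difference 0.61, edgeR adjusted p = 0.0264). With the block 3 of the 12 rose, C1galt1 among them. The Galnt3 call was lost without control replicate 1 (adjusted p = 0.0902) or control replicate 2 (0.0897).

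Of 15 sialyl- and fucosyltransferases tested, St3gal2, which caps O-glycans with sialic acid, rose to 79.8 ± 10.6 CPM with KCC-07 against 48.6 ± 8.55 CPM in control (SD, n = 3 each; log2 difference 0.72, edgeR adjusted p = 0.0131). The St3gal2 call was lost with the 6 libraries of the comparison alone (edgeR adjusted p = 0.159). St6gal1, which caps N-glycans with sialic acid, fell to 61.3 ± 1.76 CPM against 77.5 ± 5.78 CPM (SD, n = 3 each; log2 difference −0.34, edgeR adjusted p = 0.0490). The St6gal1 call was lost when any library other than control replicate 1 was left out, with adjusted p up to 0.131 (without control replicate 2), and with DESeq2 size factors (0.0501). St6gal1 also shares 200 exon bases with BC106179 on the opposite strand, so its value is uncertain. With the block 2 of the 15 rose and 1 fell.

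Spn's relatives among sialomucins and its linkers to actin gave 1 call. Of 9 sialomucin and linker genes tested none rose and 1 fell: Cd24a, a small sialylated mucin-like surface protein, had 112 ± 2.21 CPM with KCC-07 against 150 ± 20.4 CPM in control (SD, n = 3 each; log2 difference −0.42, edgeR adjusted p = 0.0268). The Cd24a call was lost without KCC-07 replicate 1, 2 or 3 (adjusted p = 0.0636, 0.0556 and 0.0528), control replicate 1 (0.0802) or scramble replicate 1 (0.0507). With the block Cd24a again fell and Podxl, a sialomucin of podocytes, rose (log2 difference 0.55, adjusted p = 0.0447). The linkers that hold the Spn tail had 735 ± 94.4 CPM with KCC-07 against 835 ± 114 CPM in control for Ezr, 240 ± 26.1 against 281 ± 17.2 CPM for Rdx, and 458 ± 19.5 against 436 ± 21.2 CPM for Msn (SD, n = 3 each). None of these 3 linkers, named after their values were seen, passed the threshold.

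None of 16 tested genes of the MAL family and of lipid rafts passed by edgeR, with 3 at an unadjusted p under 0.05, 1 by DESeq2 and 3 higher with the block (Cmtm4, Cavin1 and Inf2, named after their values were seen). Their median log2 difference was 0.08. Anxa2, a raft-associated annexin, had 459 ± 68.6 CPM with KCC-07 against 488 ± 74.9 CPM in control (SD, n = 3 each; edgeR adjusted p = 0.709). Myadm, a multi-pass protein of the same MARVEL type as Mal, had 270 ± 31.6 CPM against 290 ± 49.6 CPM (SD, n = 3 each; edgeR adjusted p = 0.640). Mal2, a relative of Mal and a part of the transcytosis route, had 11.5, 14.3 and 17.7 CPM with KCC-07 against 9.13, 13.8 and 5.54 CPM in control, and the groups overlapped (log2 difference 0.61, edgeR adjusted p = 0.204). Mal2 was named after its values were seen.

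**Figure D5:**
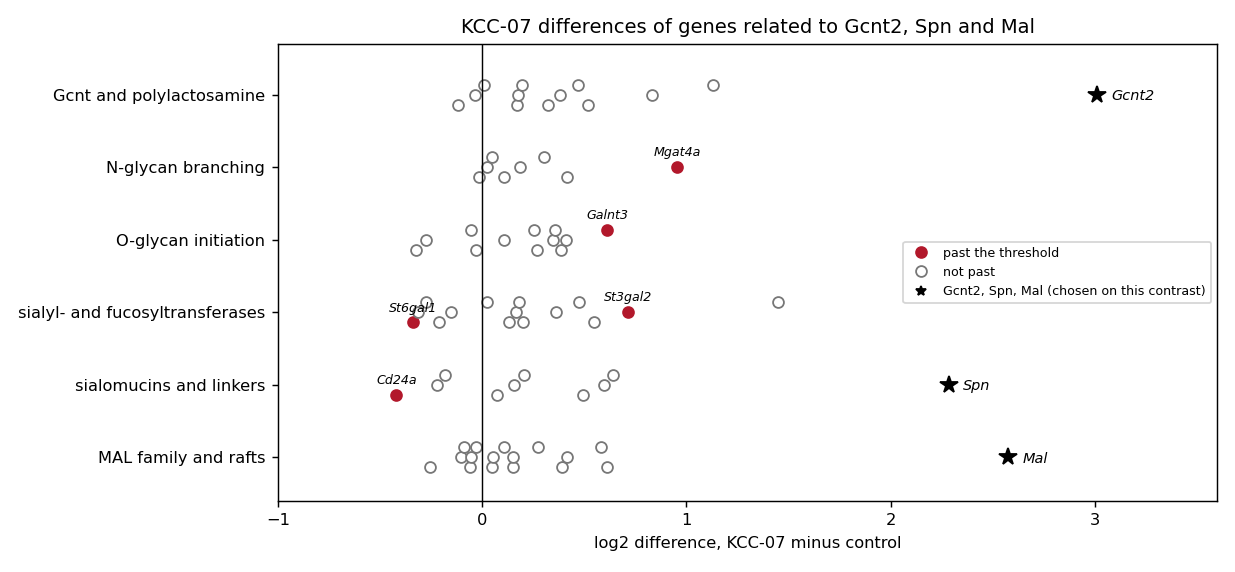
Log2 differences of KCC-07 minus control for the tested genes of 6 lists of glycosylation, sialomucin and raft genes, with Gcnt2, Spn and Mal as stars that were chosen on this contrast. Filled points passed the edgeR threshold (Mgat4a, Galnt3, St3gal2, St6gal1 and Cd24a); Gcnt2 lies at 3.01, Mal at 2.58 and Spn at 2.28.

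Across the 12 libraries, each gene was set beside the 3 tested genes whose log2 CPM ran most alike, out of 11064 genes with a mean of at least 2 CPM. These correlations are a description: the libraries share groups and replicate batches. For Spn they were Ero1lb, an oxidase of the endoplasmic reticulum (Pearson r 0.956), Cldn1, a claudin of tight junctions (0.953), and Arid5a, an RNA-binding regulator (0.952). Ero1lb has a near-identical copy, Gm18562, so its level is uncertain. Cldn1 had 5.19 ± 1.10 CPM with KCC-07 against 2.68 ± 0.188 CPM in control (SD, n = 3 each), and means of 1.32 CPM in siMBD2 against 1.85 CPM in scramble.

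For Gcnt2 they were Spty2d1, a histone chaperone (r 0.991), Lysmd3, a LysM domain protein (0.962), and Rassf6, a Ras-association domain protein (0.960). Rassf6 had 21.5 ± 6.90 CPM with KCC-07 against 7.33 ± 2.08 CPM in control (SD, n = 3 each), and means of 7.43 CPM in siMBD2 against 6.87 CPM in scramble. For Cd74 they were Bst1, a surface enzyme that acts on NAD (r 0.974), Rassf6 (0.963) and Spty2d1 (0.961). Spty2d1 and Bst1 share exon bases with Gm32031 and Fbxl5 on the opposite strand, which makes both uncertain. For Mal they were Kcnn4, a calcium-activated potassium channel (r 0.967), Arid5a (0.958) and Glis3, a zinc-finger transcription factor (0.953). Gcnt2 and Cd74 thus shared 2 of their 3 nearest genes, and Spn and Mal shared 1. All 9 genes named this way had smaller log2 differences with KCC-07 than the 4 genes, from 0.57 for Lysmd3 to 1.55 for Rassf6. The 4 genes were chosen for large values, and 0.462% of all genes tested reached the lowest of them. Nothing is therefore read from their lying above the 9.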

How the data were processed

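Polyadenylated RNA of 12 PYMT-R221A libraries was read on a NovaSeq X by the labels' protocols. The authors deposited 1 table of raw, whole-number counts (55335 gene rows), and its columns were matched by library name. DRAGEN, DESeq2 1.44.0 and mm10 (GRCm38.p6) are listed in the submitters' processing notes, with no role for each; strand setting and treatment of multi-mapped reads are not stated in those notes or the labels. The genes, the lists and the tests were chosen with earlier results of these data known.

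With edgeR 4.0.16 in R 4.3.3, genes were kept by filterByExpr (minimum count 10, minimum total 15), TMM-scaled and fitted by glmQLFit and glmQLFTest with a mean for each of the 4 groups, all 12 libraries together (8 residual degrees of freedom). Calls are Benjamini-Hochberg adjusted p under 0.05 over all 14935 genes. Spn, Gcnt2, Cd74 and Mal were part of this fit, but since they were chosen on these contrasts their place among the calls is given as a description and no p is printed for them. An exact permutation test of 3 against 3 cannot go below 0.1. Standard errors are the absolute log2 difference over the square root of F. Intervals and floors of 3 counts cover counting error or the model's spread only. Replicates of a group differed by more than sampling noise (chi-square per degree of freedom at least 3.37).

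The replicate number was taken as the batch, and same-numbered libraries within an arm were taken as paired, which is an assumption. The deviations of same-numbered libraries from their group means correlated at 0.268, 0.284 and 0.484 in the KCC-07 arm and at 0.0925, 0.153 and 0.421 in the siRNA arm; replicates 1 and 2 were as alike across numbers (0.173 to 0.295). Alternatives were DESeq2 1.42.0, its size factors, other filters, the block, and left-out libraries.

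Named genes were the 4 genes; in each pathway list up to 5 genes past the threshold in KCC-07 minus control or siMBD2 minus scramble, or the 2 with the highest mean CPM where none passed; the class II chains; and for each of the 4 the 3 genes with the highest correlation of log2 CPM (prior count 2), leaving out predicted gene models. Other list genes, among them Ciita, Irf1, Mif, Ctss, Podxl and the single markers of cell types, were named after their values were seen. Annotation was GENCODE vM21, near-identical copies were sought with blastn 2.17.0, and promoter windows are from RefSeq. On simulated data for KCC-07 minus control over 14935 genes, the fit recovered 71% of 100 genes changed 2-fold and 95% of 100 genes changed 4-fold, with 12 false calls among 178. These rates describe the simulated data only. In the real data the calls for this contrast ran from 1 to 3833 over the alternative fits.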

Additional observations from a re-analysis of the deposited data

Results flagged for a closer look

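Spn moved in opposite directions in the 2 arms: every KCC-07 library lay above every control library (log2 difference 2.28) and every siMBD2 library lay below every scramble library (−1.36), a gap of 3.65. The opposite direction was not tested, since Spn was chosen with this gap known; the siMBD2 values rest on 12 to 27 counts per library. The same pair of separations, above in the KCC-07 arm and below in the siRNA arm, was found for 193 of 14935 genes (1.29%).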

How the results depend on the processing

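The numbers of genes called depended on the fit far more than the levels of the 4 genes did. For KCC-07 minus control, 844 genes became 3251 with the replicate block, 1874 with DESeq2, 3833 without batch 3, 1 with the 6 libraries alone and 394 with those 6 and the block; for siMBD2 minus scramble, 6 became 112, 85, 162, 171 and 2753; for the difference, 98 became 1030, 617 and 1589, and 176 with no filter. Called list genes were 8, then 23, 13, 26, 0 and 3 in the first comparison; 0, then 2, 1, 3, 2 and 31 in the second; 0, then 9, 4 and 9, and 1 with no filter, for the difference. Leaving out 1 library gave 391 (without control replicate 2) to 2134 (without control replicate 3), 2 to 32 and 11 to 351 genes, and 5 to 15, 0 to 0 and 0 to 2 list genes. The block added calls in the lists, as given there, and removed none of the 8 named list genes in KCC-07 minus control. With the 6 libraries alone none of these 8 kept its call. Without batch 3, Cd74 was 1.94 in KCC-07 minus control and 1.97 in the difference. The log2 differences of KCC-07 minus control stayed above 0 for the 4 genes under every alternative run. The genes were chosen on these contrasts in the same libraries, so their steady sign was given by the choice and is no check. Leaving out 1 library gave 1.84 to 2.53 for Spn, 2.59 to 3.29 for Gcnt2, 2.34 to 3.05 for Cd74 and 1.82 to 2.90 for Mal. For the difference it gave 3.20 to 3.91, 2.35 to 3.05, 2.44 to 3.16 and 2.20 to 3.68. Depth limits the 3 groups without KCC-07, where these genes often had under 30 counts per library. The causes were not tested.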
